A study of Homo sapiens and Mus musculus with 24 samples.

Results

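Expression of 36 genes that androgen is known to control in prostate cells, other than the kallikreins, was examined in LNCaP cells treated with an antiandrogen with and without cocultured cells. The genes were taken by symbol, and all 36 were found among the 44564 gene names of the LNCaP expression table. LNCaP is an established human prostate cancer epithelial line that responds to androgen. The cells, labelled wild type, were grown in RPMI medium with serum either alone or together with cells that the labels name CCAFs or CRPCCAFs. The series is about cancer-associated fibroblasts, but the labels neither spell out these 2 names nor give the species of the cocultured cells. Cells of each condition received the vehicle DMSO or 1 µM enzalutamide and were collected at day 7, which gave 6 groups of 2 libraries, described in the labels as biological replicates.

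Androgen acts on genes through response elements in promoters and distant enhancers. In luminal prostate cells its target genes encode secreted and surface proteins, transporters, a co-chaperone of steroid receptors, metabolic enzymes and transcription factors, and several of them serve as readouts of androgen signalling in patients' tumours. Enzalutamide is an antiandrogen that blocks this signalling and is used to treat prostate cancer.

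Levels are given as RPKM, read density scaled to gene length and library size, for library 1 and then library 2 of a group. Over the genes whose reads could be recovered, the 12 libraries held 17850431 to 22187880 reads, worked out from the worth of a single read in each. Libraries of a group differed more than counting error alone would give, with a chi-square per degree of freedom of 1.66 to 4.86. All 6 luminal epithelial markers were at 1 RPKM or more in each group, with a summed level of 1016 to 1600 RPKM over the libraries. Of 14 fibroblast markers, 2 or 3 reached 1 RPKM in a group. Their summed level was lowest in cells alone with DMSO, at 8.44 to 10.9 RPKM. It was highest in the CRPCCAF coculture with enzalutamide, at 26.9 to 27.1 RPKM. The 3 fibroblast markers that entered the test below were all higher in that group than in treated cells alone. COL1A2 and POSTN were listed at 0 in both treated cocultures. The summed level of 5 macrophage and leukocyte markers was 22.2 to 23.0 RPKM in the treated CRPCCAF coculture. In the other 5 groups it was 4.56 to 9.99 RPKM. The 1 such marker that was tested was higher in the treated CRPCCAF coculture than in treated cells alone. PTPRC, which marks leukocytes, was listed at 0 in both treated cocultures. The summed level of 3 endothelial markers was at most 0.171 RPKM and that of 3 basal markers at most 1.33 RPKM. The part of these transcripts in the results was not tested. In bulk RNA, fewer cells with a transcript and less of it per cell cannot be told apart.

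Of the 36 genes, 33 reached 1 RPKM in at least 2 libraries and were tested, among 16042 genes in all. Enzalutamide lowered most of them in every condition. A gene is called higher or lower where its limma p, adjusted by Benjamini-Hochberg over all tested genes, was under 0.05. In cells alone, 28 of 33 were lower and 3 were higher, where 25.3% of all tested genes were lower and 30.1% higher. In the CCAF coculture 29 were lower and 3 higher, against 21.5% and 26.8% of all genes. In the CRPCCAF coculture 29 were lower and 3 higher, against 24.7% and 30.5%. The median change of the 33 genes, on the scale of log2(RPKM + 1), was -0.97 alone, -1.09 with CCAFs and -1.32 with CRPCCAFs, while the median over all tested genes was 0.04, 0.05 and 0.05. The same 28 genes fell in all 3 conditions, as did 16.3% of all tested genes. Across the 33 genes, the enzalutamide changes of cells alone and of the CCAF coculture had a Pearson correlation of 0.93, those of cells alone and of the CRPCCAF coculture 0.93, and those of both cocultures 0.95. These pairs share no library, and they describe genes, which are not independent replicates.

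Among secreted and surface proteins, TMPRSS2 encodes a serine protease of the cell surface whose androgen-driven promoter is often fused to ETS genes in prostate cancer. With DMSO it was at 105 and 98.2 RPKM in cells alone, 161 and 162 RPKM with CCAFs, and 282 and 283 RPKM with CRPCCAFs. With enzalutamide it was at 24.4 and 26.2 RPKM alone, 32.0 and 31.1 RPKM with CCAFs, and 73.1 and 74.0 RPKM with CRPCCAFs. The drug thus left 24.9%, 19.6% and 26.0% of the DMSO level of the same condition, and the CRPCCAF libraries were the highest in both treatments. All 3 falls passed the test, at -1.97 ± 0.04 (SE), -2.32 ± 0.04 and -1.93 ± 0.04 on the log2 scale with adjusted p of 1.2e-09, 1.3e-09 and 1.2e-09.

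ADAM7, a membrane protein of the ADAM family best known from the epididymis, had the largest fall of the 33 genes on the log2(RPKM + 1) scale in each condition. By the share of RPKM left, TRPM8 fell further in cells alone and HPGD further with CCAFs, as given below. With DMSO it was at 12.02 and 10.8 RPKM alone, 33.8 and 35.1 RPKM with CCAFs, and 34.3 and 31.1 RPKM with CRPCCAFs. Under the drug it stood at 0.425 and 0.358 RPKM alone, 1.82 and 1.64 RPKM with CCAFs, and 0.527 and 0.464 RPKM with CRPCCAFs. Its changes were -3.16, -3.70 and -4.49 on the log2 scale, with adjusted p of 1.7e-09, 1.5e-09 and 2e-10. The share left was 3.43% alone, 5.02% with CCAFs and 1.51% with CRPCCAFs. AZGP1, a secreted zinc-binding glycoprotein, kept 49.4%, 49.3% and 33.7% of its DMSO level and was lower in all 3 conditions.

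Of the transporters and channels, SLC45A3, the prostate protein prostein, was at 137 and 135 RPKM alone, 157 and 154 RPKM with CCAFs, and 131 and 134 RPKM with CRPCCAFs under DMSO. In treated cells it was at 37.4 and 36.5 RPKM alone, 29.5 and 28.9 RPKM with CCAFs, and 20.7 and 20.5 RPKM with CRPCCAFs. The treated libraries of the 3 conditions did not overlap, and cells alone held the most. Its changes were -1.85, -2.38 and -2.63 on the log2 scale, each with an SE of 0.03, and adjusted p of 5.2e-10, 2e-10 and 6.5e-11.

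TRPM8, a cold-sensing cation channel, was at 3.88 and 3.76 RPKM alone, 11.3 and 11.96 RPKM with CCAFs, and 19.6 and 19.4 RPKM with CRPCCAFs under DMSO. Treated libraries held 0.0620 and 0.0880 RPKM alone, from 7 and 11 reads, at 1.04 and 0.782 RPKM with CCAFs, and at 2.79 and 3.11 RPKM with CRPCCAFs. The groups lay in the same order under both treatments and none of them overlapped. Enzalutamide left 1.96% of the level alone, 7.81% with CCAFs and 15.1% with CRPCCAFs. Its changes were -2.17, -2.73 and -2.38 on the log2(RPKM + 1) scale with adjusted p of 2.4e-08, 1.4e-08 and 1.4e-08, a scale that understates falls to levels far under 1 RPKM.

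KCNN2, a calcium-activated potassium channel, was at 27.8 and 29.2 RPKM alone, 47.0 and 44.9 RPKM with CCAFs, and 39.2 and 42.8 RPKM with CRPCCAFs under DMSO. After enzalutamide it was at 3.11 and 2.96 RPKM alone, 5.73 and 5.94 RPKM with CCAFs, and 2.76 and 2.17 RPKM with CRPCCAFs. It kept 10.7%, 12.7% and 6.02% of its DMSO level, and the CCAF libraries were the highest of the treated ones. CHRNA2, a nicotinic receptor subunit, kept 8.06%, 10.7% and 8.18%. SLC43A1, an amino acid transporter, kept 27.4%, 25.5% and 19.6%. ABCC4, an efflux pump for cyclic nucleotides and prostaglandins, was at 30.6 and 31.2 RPKM alone, 46.6 and 45.9 RPKM with CCAFs, and 56.7 and 48.3 RPKM with CRPCCAFs under DMSO. With enzalutamide it was at 12.2 and 11.7 RPKM alone, 29.7 and 29.3 RPKM with CCAFs, and 41.8 and 42.4 RPKM with CRPCCAFs. It kept 38.8% alone, 63.7% with CCAFs and 80.2% with CRPCCAFs.

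**Figure D1:**
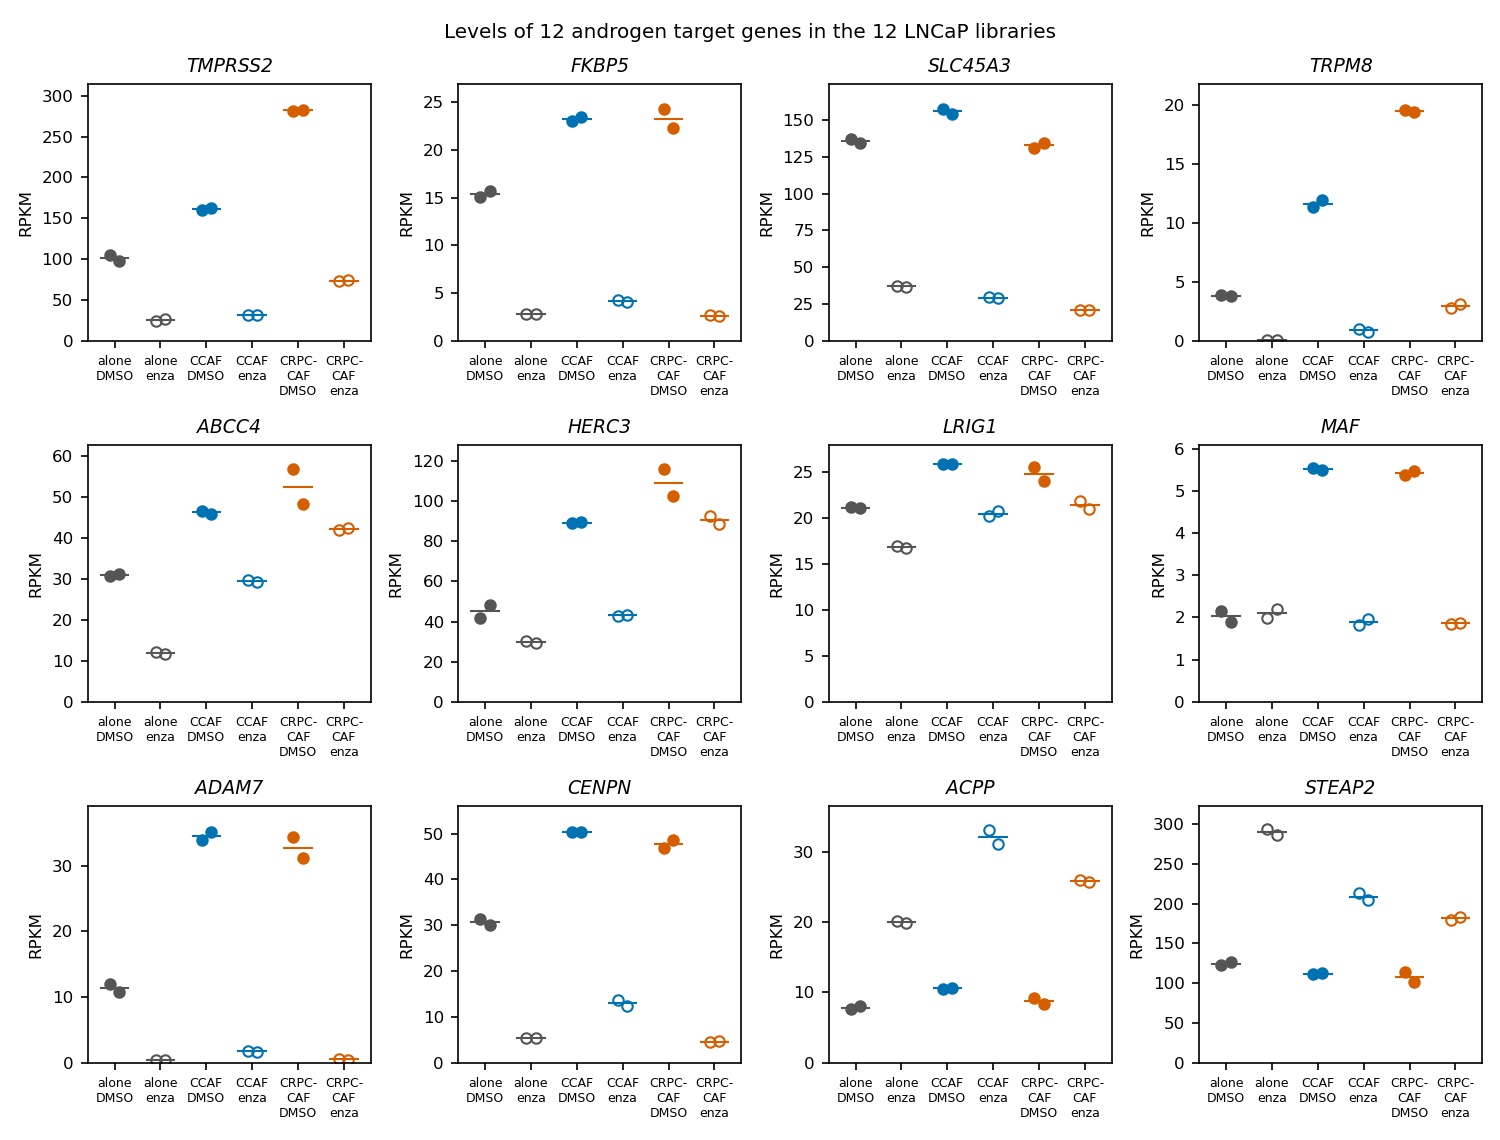
RPKM (linear axis from 0) of 12 of the genes in the 6 groups, with 1 point for each library, filled for DMSO and open for enzalutamide, and a line at the mean of the 2 libraries. TMPRSS2 and TRPM8 are highest with CRPCCAFs under both treatments. With enzalutamide, the means of ABCC4 and HERC3 lie slightly under the untreated level of cells alone with CCAFs and above it with CRPCCAFs. MAF differs between treatments only in the cocultures, and ACPP and STEAP2 are higher with enzalutamide.

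Among chaperones, kinases and trafficking proteins, FKBP5, a co-chaperone of steroid receptors, was at 15.1 and 15.7 RPKM alone, 23.0 and 23.4 RPKM with CCAFs, and 24.2 and 22.2 RPKM with CRPCCAFs under DMSO. Under the drug it stood at 2.77 and 2.84 RPKM alone, 4.24 and 4.03 RPKM with CCAFs, and 2.66 and 2.54 RPKM with CRPCCAFs. It kept 18.3%, 17.8% and 11.2%. Both cocultures lay above cells alone under DMSO, while under the drug the CRPCCAF libraries lay below those of cells alone, a difference that did not pass (-0.08, adjusted p = 0.28). CAMKK2, a calcium-dependent kinase upstream of AMPK, was at 18.9 and 18.1 RPKM alone, 29.2 and 28.7 RPKM with CCAFs, and 22.2 and 22.2 RPKM with CRPCCAFs under DMSO. In treated cells it was at 10.5 and 11.9 RPKM alone, 15.4 and 15.3 RPKM with CCAFs, and 10.8 and 10.6 RPKM with CRPCCAFs. The CCAF libraries were the highest in both treatments, and the treated libraries of the other 2 conditions overlapped.

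HERC3, an E3 ubiquitin ligase, kept more of its level with CRPCCAFs than most of these genes. With DMSO it was at 41.9 and 48.3 RPKM alone, 88.9 and 89.5 RPKM with CCAFs, and 116.2 and 102 RPKM with CRPCCAFs. Treated libraries held 30.1 and 29.4 RPKM alone, 42.9 and 43.3 RPKM with CCAFs, and 92.9 and 88.8 RPKM with CRPCCAFs. The share left was 65.9%, 48.3% and 83.1%, and the fall with CRPCCAFs (-0.26 ± 0.07 (SE), adjusted p = 0.010) did not pass without the first DMSO library or without the second enzalutamide library of that coculture. LRIG1, which restrains receptor tyrosine kinases, kept 79.7%, 79.3% and 86.3%. HOMER2, a scaffold protein, kept 39.8%, 39.2% and 33.4%, the vesicle GTPase RAB3B kept 59.4%, 46.3% and 54.2%, and TPD52, a trafficking protein often gained in prostate cancer, kept 61.9%, 56.4% and 44.0%.

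The 4 metabolic enzymes were lower in every condition. HPGD, which inactivates prostaglandins, kept 7.39%, 2.39% and 1.90%, from 2 to 18 reads in each treated library. ACSL3, a long-chain acyl-CoA synthetase, kept 51.9% alone but 33.7% with CCAFs and 31.7% with CRPCCAFs. SORD, the sorbitol dehydrogenase, kept 56.1%, 58.8% and 41.2%, and GNMT, the glycine N-methyltransferase, 58.3%, 53.4% and 31.4%. The GNMT fall in cells alone (-0.65 ± 0.19 (SE), adjusted p = 0.015) did not pass without either DMSO library or without the first enzalutamide library, and with CCAFs it did not pass without the second enzalutamide library.

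ZBTB16, a zinc finger transcription factor, was at 15.9 and 16.3 RPKM alone, 19.8 and 19.8 RPKM with CCAFs, and 24.1 and 23.0 RPKM with CRPCCAFs under DMSO. After enzalutamide it was at 8.55 and 8.27 RPKM alone, 9.44 and 9.67 RPKM with CCAFs, and 8.60 and 7.72 RPKM with CRPCCAFs. The untreated groups were ordered without overlap, while the treated libraries of cells alone and of the CRPCCAF coculture overlapped. ELL2, a transcription elongation factor, kept 36.5% alone, 19.3% with CCAFs and 17.6% with CRPCCAFs. Its partner EAF2 kept 47.1%, 30.4% and 34.0%, and ZBTB10, another zinc finger factor, kept 38.5%, 33.01% and 39.8%. Of the 3 genes grouped under mitosis and chromosomes, the centromere protein CENPN kept 17.3%, 25.9% and 9.57%. The condensin subunit NCAPD3 kept 37.9%, 56.3% and 39.3%, and MPHOSPH9, a centrosomal protein, 48.8%, 50.1% and 48.4%. C1orf116, whose function is not well known, kept 54.4%, 46.0% and 38.3%.

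**Figure D2:**
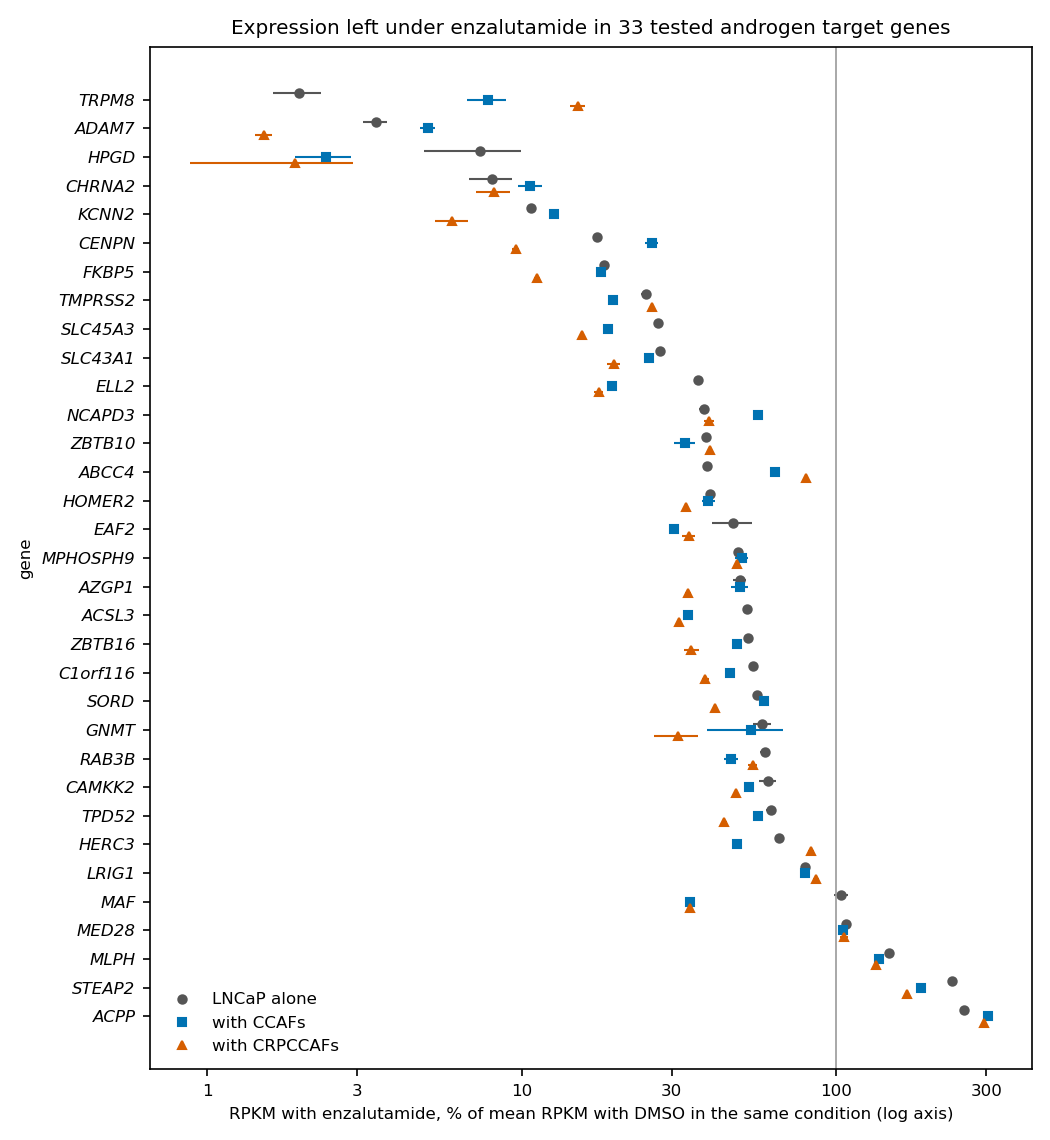
Mean RPKM with enzalutamide as a percent of the mean RPKM with DMSO in the same condition (log axis) for the 33 tested genes, ordered by the share in cells alone. Points are means of 2 libraries, horizontal lines span both enzalutamide libraries, and the vertical line marks 100%: 28 genes lie left of it in all 3 conditions, MLPH, STEAP2, ACPP and MED28 lie right of it in all 3, and MAF lies right of it in cells alone only, where the differences of MED28 and of MAF in cells alone did not pass.

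Expression under enzalutamide was kept by 5 of the 33 genes in cells alone and by 4 in each coculture, in that the test did not call them lower. ACPP, prostatic acid phosphatase, was at 7.61 and 8.07 RPKM alone, 10.5 and 10.7 RPKM with CCAFs, and 9.16 and 8.36 RPKM with CRPCCAFs under DMSO. With enzalutamide it rose to 20.1 and 19.8 RPKM alone, 33.1 and 31.1 RPKM with CCAFs, and 25.9 and 25.7 RPKM with CRPCCAFs. The rises of 2.55-fold, 3.03-fold and 2.95-fold passed with adjusted p of 5.4e-08, 4.3e-08 and 2.2e-08, and all treated libraries lay above all untreated ones.

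STEAP2, a metalloreductase of the cell surface and endosomes, was at 123 and 127 RPKM alone, 111 and 113 RPKM with CCAFs, and 114 and 102 RPKM with CRPCCAFs under DMSO. With enzalutamide it was at 294 and 286 RPKM alone, 213 and 204 RPKM with CCAFs, and 179.9 and 183 RPKM with CRPCCAFs. It rose in all 3 conditions by 2.33-fold, 1.86-fold and 1.68-fold, and was highest in treated cells alone. MLPH, melanophilin, which links RAB27 vesicles to myosin, was at 19.6 and 20.6 RPKM alone, 21.8 and 20.3 RPKM with CCAFs, and 22.8 and 23.4 RPKM with CRPCCAFs under DMSO. Under the drug it stood at 29.2 and 30 RPKM alone, 29.1 and 28.7 RPKM with CCAFs, and 30.7 and 30.8 RPKM with CRPCCAFs. Its rises, 1.47-fold, 1.37-fold and 1.33-fold, were the smallest of the 3 and passed in each condition. MED28, a Mediator subunit, did not pass in any of them, with changes of 0.10, 0.07 and 0.08 on the log2 scale.

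MAF, a bZIP transcription factor, was the gene whose call differed between cells alone and both cocultures. With DMSO it was at 2.16 and 1.90 RPKM alone, 5.55 and 5.51 RPKM with CCAFs, and 5.38 and 5.47 RPKM with CRPCCAFs. In treated cells it was at 2.00 and 2.20 RPKM alone, 1.83 and 1.96 RPKM with CCAFs, and 1.85 and 1.87 RPKM with CRPCCAFs. The 4 untreated coculture libraries stood above the other 8, which lay between 1.83 and 2.20 RPKM. The change was 0.03 alone (adjusted p = 0.73), -1.18 with CCAFs and -1.17 with CRPCCAFs, and the differences from cells alone of -1.21 and -1.20 passed with adjusted p of 0.00013 and 0.00019. Maf is also abundant in the separately sequenced mouse fibroblasts, as given below.

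STEAP4, ORM1 and SGK1 stayed under the level set for the test and enter no count. In the fit with no filter, STEAP4 and ORM1 were lower with enzalutamide in all 3 conditions, by -0.27 to -0.54 on the log2(RPKM + 1) scale with adjusted p of 0.00035 to 0.0063, and SGK1 did not pass (adjusted p of 0.061 to 0.54). STEAP4, a metalloreductase related to STEAP2, was at 0.343 and 0.228 RPKM alone, 0.611 and 0.413 RPKM with CCAFs, and 0.580 and 0.648 RPKM with CRPCCAFs under DMSO. With enzalutamide it had 0 and 1 reads alone, 5 and 2 reads with CCAFs (0.0541 and 0.0234 RPKM), and 12 and 11 reads with CRPCCAFs (0.147 and 0.122 RPKM). SGK1, a kinase that steroid hormones induce, was at 0.478 and 0.400 RPKM alone, 0.5996 and 0.754 RPKM with CCAFs, and 1.05 and 0.884 RPKM with CRPCCAFs under DMSO. With enzalutamide SGK1 was at 0.314 and 0.363 RPKM alone, 0.437 and 0.297 RPKM with CCAFs, and 0.691 and 0.539 RPKM with CRPCCAFs, which were the highest treated libraries. Its mouse counterpart is abundant in the separately sequenced fibroblasts. ORM1, a secreted acute phase glycoprotein, had 3 to 8 reads in each DMSO library, 2 and 1 reads in the CCAF coculture with enzalutamide, and 0 reads in the other 4 treated libraries.

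The promoters were searched for the androgen response element, which consists of a pair of inverted repeat units. RefSeq windows of 300 bases, from 250 bases before to 50 bases after a gene's start (build GRCh38.p14), were found for 27 of the 36 genes, with 44 listed starts. No window was found for TMPRSS2, ELL2, ADAM7, ZBTB10, MED28, SORD, TPD52, ZBTB16 and CHRNA2. The full motif searched was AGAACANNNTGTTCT, which reads the same on both strands and has 12 fixed letters. None of the 44 windows held it with at most 2 fixed letters different, which 1.41% of the 35116 windows of the table did. The repeat unit AGAACA, alone on either strand, stood in 4 of the 44 windows (9.09%), those of FKBP5, MLPH, SGK1 and TRPM8, and in 14.8% of all windows. The closest matches, with 3 fixed letters different, are shown for the 5 genes that had them, a choice made after the search. The share of all windows with a match of 3 letters different was not counted. These 5 matches therefore have no background beside them, and whether they act as response elements was not tested. Each line gives 30 bases, 5′ to 3′ on the strand of the gene, and capitals mark the fixed letters that matched.
FKBP5: tgggggcAGAAaAgcagGgTCTcgggcttc
TRPM8: agcatttAaAAtAccaTGTTCactaattat
MLPH: ttcctggAGAACAgaaTGTgagtttttaag
STEAP2: aaAGAgaAatcTGaTCTagagaattattac
HPGD: aactaagAaAACAcaaTGaTaTtagttact
These lie at chr6:35728780-35728809 on the minus strand for FKBP5, chr2:233917172-233917201 on the plus strand for TRPM8, chr2:237486293-237486322 on the plus strand for MLPH, chr7:90213570-90213599 on the plus strand for STEAP2, and chr4:174522980-174523009 on the minus strand for HPGD. The windows hold promoters only, and distant enhancers were not searched.

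Coculture alone, without the drug, raised a large part of these genes. With CCAFs 19 of 33 were higher than in cells alone and 0 lower, against 5.47% and 3.99% of all tested genes, and 23 had an unadjusted p under 0.05. The median change was 0.29, beside -0.01 over all genes. The 5 largest were ADAM7 (1.52 on the log2 scale), TRPM8 (1.39), MAF (1.11), HERC3 (0.97) and CENPN (0.70). HPGD, RAB3B, ZBTB16 and SLC45A3 were higher too, but each lost its call when 1 or more single libraries were left out.

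With CRPCCAFs 18 genes were higher and 4 lower than in cells alone under DMSO, against 14.3% and 16.3% of all genes, with a median of 0.22 beside -0.02. TRPM8 rose by 2.09 on the log2 scale (5.10-fold in RPKM), TMPRSS2 by 1.47 (2.78-fold), ADAM7 by 1.44 (2.87-fold), HERC3 by 1.26 (2.42-fold) and MAF by 1.09 (2.67-fold). The genes that fell were NCAPD3 by 0.36, MPHOSPH9 by 0.32, C1orf116 by 0.27 and STEAP2 by 0.21. The last count was 2 without the second DMSO library of cells alone and 2 without the second DMSO library of this coculture, where MPHOSPH9 and STEAP2 did not pass. Both comparisons share the untreated libraries of cells alone. Set directly against each other under DMSO, the CRPCCAF coculture was higher than the CCAF coculture for TMPRSS2 (0.80), TRPM8 (0.70), HERC3 (0.29), AZGP1 (0.28) and ZBTB16 (0.24), and lower for C1orf116 (-0.39), CAMKK2 (-0.37), ACPP (-0.25), NCAPD3 (-0.24), SLC45A3 (-0.23) and ACSL3 (-0.15). These are 5 and 6 genes, where 7.03% and 6.41% of all genes passed. Without either CCAF library of that treatment the counts were 2 and 3. Without the first CRPCCAF library 3 genes were higher, and without the second 3 were lower.

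Under enzalutamide the cocultures parted. With CCAFs 14 of 33 genes were higher than in treated cells alone and 4 lower, against 11.9% and 7.51% of all genes, with a median of 0.12 beside 0.02. ABCC4 was higher by 1.23 on the log2 scale (2.46-fold), CENPN by 1.15 (2.46-fold), ADAM7 by 0.97 (4.42-fold), TRPM8 by 0.83 (12.1-fold) and KCNN2 by 0.76 (1.92-fold). STEAP2 was lower by -0.47, EAF2 by -0.37, SLC45A3 by -0.33 and ELL2 by -0.31. The count of lower genes was 2 without the first enzalutamide library of cells alone, where EAF2 and ELL2 did not pass.

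With CRPCCAFs 7 genes were higher than in treated cells alone and 15 lower, against 16.5% and 19.6% of all genes, with a median of -0.14 beside -0.03. TRPM8 was higher by 1.87 on the log2 scale (39.3-fold in RPKM, over the 7 and 11 reads of cells alone), ABCC4 by 1.73 (3.52-fold), HERC3 by 1.58 (3.05-fold), TMPRSS2 by 1.51 (2.91-fold) and RAB3B by 0.40 (1.37-fold). The largest differences in the other direction were SLC45A3 at -0.81, C1orf116 at -0.74, STEAP2 at -0.67, GNMT at -0.63 and SLC43A1 at -0.45. Fewer than these 15 genes were called lower in each fit without a single library of either group, and GNMT lost its call in some.

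**Figure D3:**
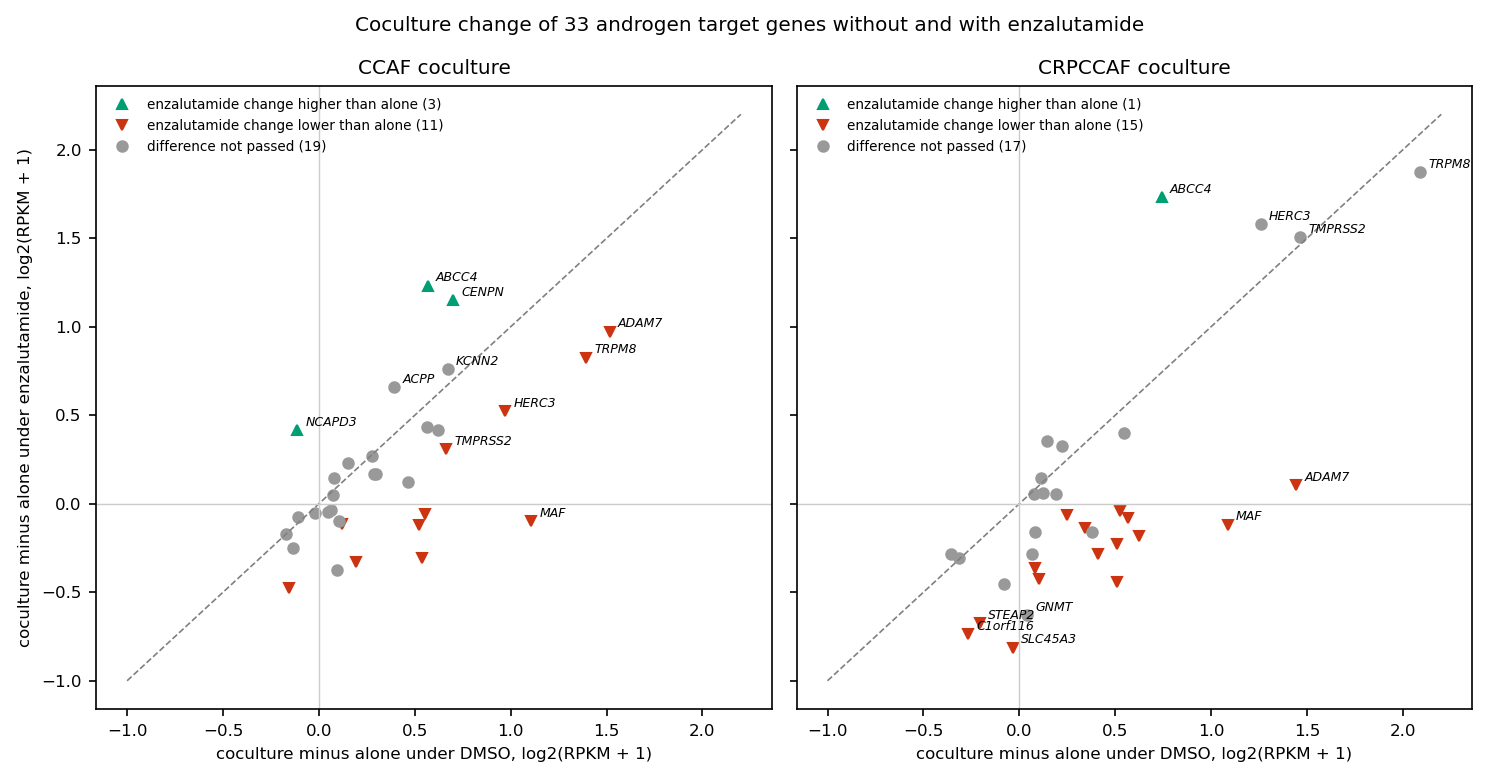
Change in coculture against cells alone without the drug (horizontal) and with enzalutamide (vertical), both in log2(RPKM + 1), for the 33 tested genes with CCAFs (left) and CRPCCAFs (right). The dashed line marks equal changes, and triangles mark genes whose enzalutamide change differed from that of cells alone: 3 up and 11 down with CCAFs, 1 up and 15 down with CRPCCAFs. With a pseudocount of 0.1 TRPM8 and ADAM7 would lie on the other side of the line in the left panel, and TRPM8 and CHRNA2 in the right one. CHRNA2 lies close to that line on both scales (-0.06 and 0.005) and did not pass on either.

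Of the 28 genes that fell with enzalutamide in cells alone, 13 were regained in part or in full with CCAFs, meaning that the treated coculture was higher than treated cells alone. Among all 4056 genes that fell alone, 32.1% were. The 13 were TMPRSS2, FKBP5, TRPM8, ABCC4, CENPN, ADAM7, KCNN2, HERC3, CAMKK2, SORD, TPD52, LRIG1 and NCAPD3. The term compares levels under the drug, not the size of the fall. Only ABCC4, CENPN and NCAPD3 of the 13 fell less than in cells alone by the difference of changes. TMPRSS2, TRPM8, ADAM7 and HERC3 fell more by that test, with TRPM8 and ADAM7 depending on the scale, as given below. Of all 28 targets that fell alone, 3 fell less with CCAFs and 9 fell more. Of the 4056 genes that fell alone, 641 fell less and 68 fell more. HERC3 kept 48.3% of its DMSO level with CCAFs and 65.9% alone. With CRPCCAFs 6 were regained, TMPRSS2, TRPM8, ABCC4, HERC3, RAB3B and LRIG1, against 16.6% of all genes that fell alone. Of these 6, only ABCC4 fell less than in cells alone by the difference of changes, and TRPM8 depended on the scale. Of all 28 targets that fell alone, 1 fell less with CRPCCAFs and 13 fell more. Among the 4056 genes that fell alone, 296 fell less and 121 fell more. TMPRSS2, TRPM8, ABCC4, HERC3 and LRIG1 were on both lists. In the other direction, 3 genes (SLC45A3, ELL2 and EAF2) were lower still with CCAFs than in treated cells alone, against 2.69% of all genes that fell alone. With CRPCCAFs 14 were lower still, against 30.4%. Of these lists, SORD, TPD52, EAF2 and ELL2 with CCAFs, and CENPN, KCNN2, MPHOSPH9, GNMT, TPD52 and HOMER2 with CRPCCAFs, lost their call in at least 1 fit without a single library.

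A regained gene was not always back at the level of untreated cells. ABCC4, HERC3 and LRIG1 were, in both cocultures, in that the treated coculture was not called lower than untreated cells alone. Of all genes that fell alone, 10.7% met this with CCAFs and 11.8% with CRPCCAFs. The 3 of 28 targets are a share near these. In the treated CCAF coculture ABCC4 stood at 95.4%, HERC3 at 95.6% and LRIG1 at 97.0% of the untreated level of cells alone. In the treated CRPCCAF coculture they stood at 136%, 201% and 101%, and ABCC4 (0.43 ± 0.06 (SE), adjusted p = 0.0002) and HERC3 (1.00 ± 0.07, adjusted p = 1.2e-06) were higher than in untreated cells alone. TMPRSS2 stood at 31.1% with CCAFs and 72.4% with CRPCCAFs, and TRPM8 at 23.8% and 77.1%. RAB3B reached 65.5% and 81.4% and CAMKK2 82.7% and 57.6%. TRPM8 with CRPCCAFs was called lower than in untreated cells alone (adjusted p = 0.0098), but not without the first DMSO library of cells alone or the first enzalutamide library of that coculture.

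Against untreated cells alone, 25 genes were lower and 3 higher in the treated CCAF coculture, where 21.9% and 28.1% of all genes were. In the treated CRPCCAF coculture 25 were lower and 6 higher, where 28.5% and 33.7% were. KCNN2 at 8.66%, ADAM7 at 4.34%, HPGD at 2.68% and CHRNA2 at 9.01% held the least of that level with CRPCCAFs. SLC45A3 stood at 21.5% and 15.2%, and FKBP5 at 26.9% and 16.9%.

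**Figure D4:**
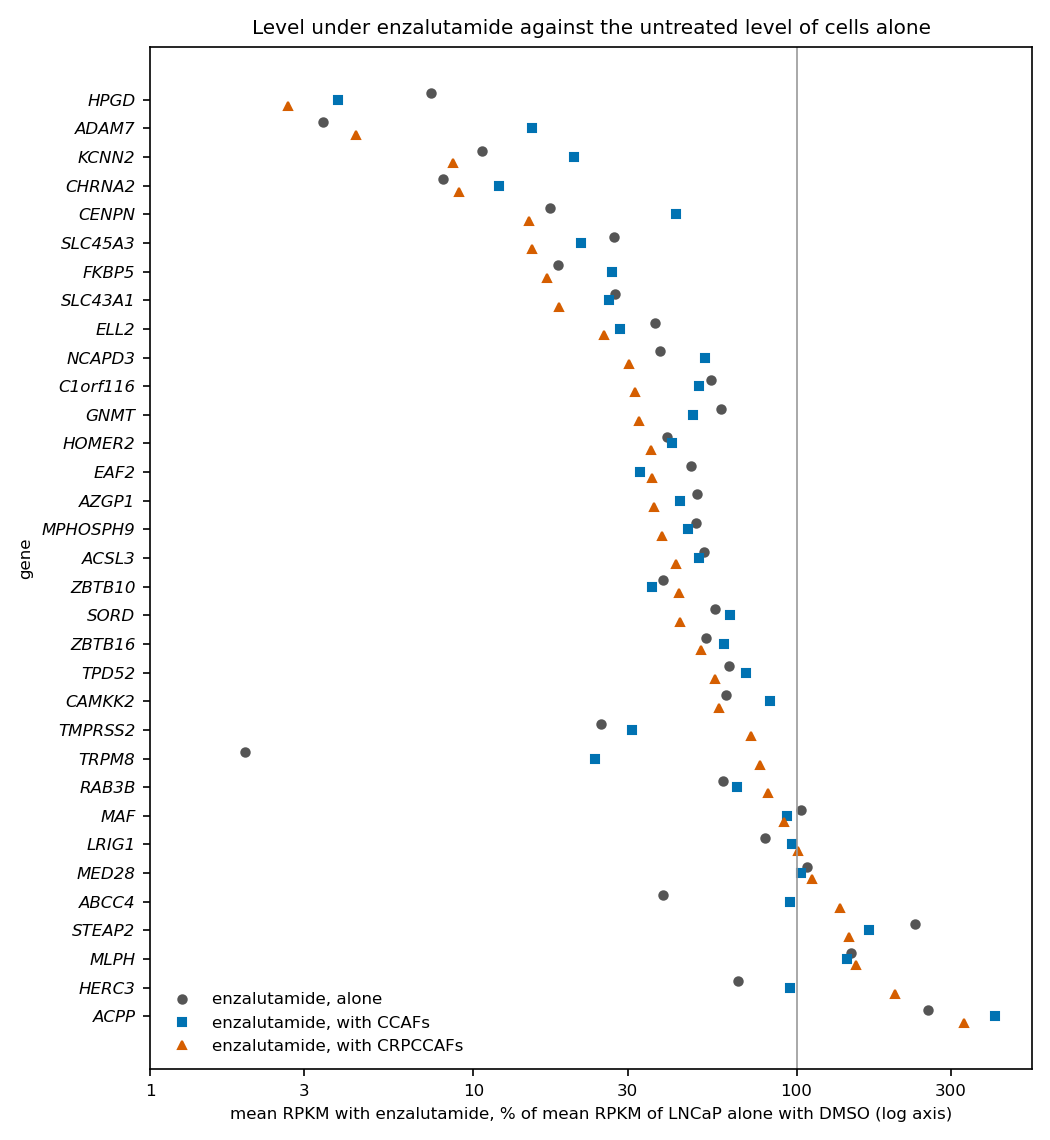
Mean RPKM with enzalutamide in cells alone and in both cocultures, as a percent of the mean RPKM of cells alone with DMSO (log axis), for the 33 tested genes ordered by the CRPCCAF value. Each point is the ratio of 2 means of 2 libraries. ABCC4 and HERC3 lie near 100% with CCAFs and at 136% and 201% with CRPCCAFs, while TMPRSS2 and TRPM8 lie at 72.4% and 77.1% with CRPCCAFs.

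The size of the enzalutamide change itself was compared between conditions by the difference of both changes. With CCAFs against cells alone, 3 genes had a higher value (a smaller fall) and 11 a lower one, against 4.56% and 2.45% of all genes. ABCC4 (0.67), NCAPD3 (0.53) and CENPN (0.45) were the former, and MAF (-1.21), ELL2 (-0.84), HPGD (-0.64), ACSL3 (-0.61) and TRPM8 (-0.57) led the latter. TRPM8 depended on the scale: with a pseudocount of 0.1 its difference was 0.94 (adjusted p = 0.019) in place of -0.57, and that of ADAM7 was 0.31 (adjusted p = 0.27) in place of -0.54. The count of 11 fell to between 5 and 8 when single libraries were left out: 6 without either DMSO library of cells alone, 7 without the first and 5 without the second DMSO library of the coculture, and likewise 7 and 5 for its enzalutamide libraries. TRPM8, C1orf116, ADAM7, HERC3, STEAP2 and HPGD were the genes that dropped out.

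With CRPCCAFs against cells alone, ABCC4 alone had a higher value (0.99) and 15 genes a lower one, against 3.68% and 3.33% of all genes. ADAM7 (-1.34), MAF (-1.20), ELL2 (-0.95), CENPN (-0.80) and SLC45A3 (-0.78) led them. With a pseudocount of 0.1 TRPM8 joined ABCC4, at 1.80 (adjusted p = 0.0007) in place of -0.21. HERC3 joined it, for a count of 2, without the first DMSO library of cells alone and without the first DMSO library of the coculture. TMPRSS2 did not pass, with a difference of 0.04 ± 0.06 (SE). Between both cocultures, HERC3 (0.77) and TMPRSS2 (0.39) had a higher value with CRPCCAFs and 11 genes a lower one, against 2.38% and 4.07% of all genes, led by CENPN (-1.26), KCNN2 (-0.82), ADAM7 (-0.79), AZGP1 (-0.53) and FKBP5 (-0.51).

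Under enzalutamide the CRPCCAF coculture was higher than the CCAF coculture for 6 of the 33 genes and lower for 18, against 13.9% and 18.5% of all genes. TMPRSS2 (1.20), HERC3 (1.06), TRPM8 (1.05), ABCC4 (0.50) and RAB3B (0.28) had the largest positive differences. CENPN (-1.33), KCNN2 (-0.99), ADAM7 (-0.87), NCAPD3 (-0.70) and C1orf116 (-0.62) had the largest negative ones. Fewer than the 18 were called lower in each fit without a single treated library of either coculture. RAB3B lost its call in fits without the second CCAF library, or without either CRPCCAF library, of this treatment.

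Genes known to be repressed by androgen moved the other way from most of the targets. Of 10 tested, 8 rose in cells alone, 9 with CCAFs and 8 with CRPCCAFs under enzalutamide, and 1 fell in each condition. Over all tested genes, 30.1%, 26.8% and 30.5% rose in these conditions and 25.3%, 21.5% and 24.7% fell. The 3 kallikreins fell in all 3 conditions, and under enzalutamide all 3 were higher in each coculture than in cells alone. Of all tested genes, 11.9% were higher with CCAFs and 16.5% with CRPCCAFs under the drug.

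Other lists moved beside these genes. All 24 cell cycle genes fell with enzalutamide in every condition, as did 16.3% of all tested genes. Under the drug all 24 were higher with CCAFs than in cells alone (median 0.93), and 21 were lower with CRPCCAFs (median -0.54). Of all tested genes, 11.9% were higher with CCAFs and 19.6% lower with CRPCCAFs. Of the 3 mitosis and chromosome genes among the targets, CENPN and NCAPD3 were higher with CCAFs and lower with CRPCCAFs under the drug. MPHOSPH9 was lower with CRPCCAFs, and with CCAFs it stood at 94.6% of treated cells alone, which did not pass. The part of cell division in these values was not tested. Of 10 tested glucocorticoid-responsive genes, 8 were higher with CRPCCAFs than alone under DMSO and 9 under enzalutamide, against 4 and 2 with CCAFs. Over all tested genes, 14.3% and 16.5% were higher with CRPCCAFs, against 5.47% and 11.9% with CCAFs. The transcript of the glucocorticoid receptor, NR3C1, was between 0.0383 and 0.105 RPKM in all 12 libraries. The part of other steroid receptors in the values of FKBP5, SGK1 and ZBTB16, which glucocorticoids are known to induce too, was not tested.

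Mouse genes of the same symbol were looked up in the separately sequenced fibroblasts of PtenPC-/-; Trp53PC-/- mice, using the 6 libraries with DMSO, with enzalutamide and from ADT mice. The libraries from ADT mice are not listed with the day 7 of the others. The part of the mice and that of the day cannot be told apart. Of the 35 found, 11 were under 1 TPM (a transcript level scaled to the library) in all 6 libraries, among them Tmprss2, Trpm8, Adam7, Kcnn2 and Zbtb16. At 10 TPM or more in all 6 were 12, namely Abcc4, Acsl3, Cenpn, Ell2, Fkbp5, Lrig1, Maf, Med28, Sgk1, Sord, Steap2 and Tpd52. Sgk1 was at 148 and 144 TPM with DMSO, 224 and 214 TPM with enzalutamide, and 51.6 and 49.2 TPM in ADT mice, while SGK1 in the LNCaP libraries did not exceed 1.05 RPKM. Abcc4 was at 17.0 and 18.5 TPM with DMSO, 23.8 and 24.2 TPM with enzalutamide, and 24.6 and 23.3 TPM in ADT mice. Maf was at 45.4 and 45.4 TPM with DMSO, 35.13 and 35.85 TPM with enzalutamide, and 12.2 and 12.9 TPM in ADT mice. Herc3 was at 6.20 and 6.68 TPM with DMSO, 9.08 and 9.17 TPM with enzalutamide, and 3.52 and 4.06 TPM in ADT mice. The part of reads from cocultured cells in the coculture values of these genes was not tested.

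Over the 12 LNCaP libraries, the genes outside the set whose log2(RPKM + 1) was most like the mean standardised level of the 33 were DSC1 (Pearson r 0.995), AFF3 (0.993), SMYD2 (0.992), IVNS1ABP (0.992), ABHD2 (0.992), ENSG00000225255.2 (0.991), LINC01297 (0.991), LINC01516 (0.991), STK39 (0.990) and STK17B (0.990). The libraries fall into treated and untreated groups, so these values describe a shared split of 12 points.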

How the data were processed

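The authors deposited RPKM per gene for the 12 LNCaP libraries and TPM per gene for the fibroblasts, per the file headers. HISAT2, HTSeq, DESeq2, hg19 and mm10 are listed, without roles or versions, in the submitters' processing notes. The sources used here do not say how reads of LNCaP and cocultured cells were told apart. Of 44591 LNCaP names, 27 calendar dates were removed. Reads were recovered for 25005 genes, including all 36 targets and at least 99.92% of each library's RPKM total, with whole reads called within 0.02.

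Genes at 1 RPKM or more in at least 2 libraries (16042) were fitted once with limma 3.58.1 (R 4.3.3, mean-variance trend) on log2(RPKM + 1), with 6 groups, no block, 14 comparisons and 6 residual degrees of freedom. All tests are two-sided, with Benjamini-Hochberg adjustment within a comparison and a threshold of 0.05. SE is the moderated model's. The fit was tested on simulated data. Percents and folds are ratios of mean RPKM. Alternatives were a pseudocount of 0.1, no filter, median-of-ratios scaling, a replicate block and leaving out each library. Values of every library are given for the main readouts of each role and for the genes that rose. Other genes were named as the 5 largest changes in each direction, the 6 smallest p in differences of changes and the 10 genes most alike by Pearson's r. Library values of ABCC4, HERC3 and MAF were printed with their values already seen. The members and all lists were chosen with earlier results of these data known. TPM values were only described.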

Additional observations from a re-analysis of the deposited data

Results flagged for a closer look

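The results below are differences of the enzalutamide change between conditions, tested in 1 model and given on the log2(RPKM + 1) scale. Between the CCAF coculture and cells alone, 3 of the 33 targets had a higher value and 11 a lower one, against 4.56% and 2.45% of all tested genes. The 11 include TRPM8 and ADAM7, whose differences changed direction with a pseudocount of 0.1. Those with the smallest p were SLC45A3 (-0.52), MAF (-1.21), ACSL3 (-0.61), ELL2 (-0.84), ABCC4 (0.67) and NCAPD3 (0.53).

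Between the CRPCCAF coculture and cells alone, 1 target had a higher value and 15 a lower one, against 3.68% and 3.33% of all tested genes. The smallest p belonged to SLC45A3 (-0.78), ADAM7 (-1.34), ACSL3 (-0.69), CENPN (-0.80), MAF (-1.20) and ABCC4 (0.99). Between the CRPCCAF and the CCAF coculture, 2 targets had a higher value and 11 a lower one, against 2.38% and 4.07% of all tested genes. There the smallest p belonged to CENPN (-1.26), SORD (-0.51), HERC3 (0.77), ADAM7 (-0.79), KCNN2 (-0.82) and FKBP5 (-0.51). CENPN had a smaller fall than alone with CCAFs and a larger fall with CRPCCAFs.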

How the results depend on the processing

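The 33 tested genes gave 313 calls over the 14 comparisons and 2676 values under the alternatives. Of these 2505 kept their direction and their side of the threshold, 169 kept the direction only and 2 changed direction. Those 2 were the differences of enzalutamide changes between the CCAF coculture and cells alone for TRPM8 (0.94, adjusted p = 0.019) and ADAM7 (0.31, adjusted p = 0.27) with a pseudocount of 0.1, where their treated levels alone lie under 1 RPKM. With no filter 3 genes, in place of 5, were higher in the CRPCCAF than in the CCAF coculture under DMSO. With a pseudocount of 0.1 there were 2, in place of 1, with a higher enzalutamide change with CRPCCAFs than alone.

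When single libraries were left out, taking the remaining one to vary as libraries of other groups do, the count lower with CRPCCAFs under DMSO ran from 2 to 4. CRPCCAFs against CCAFs under DMSO ran from 2 to 5 higher and 3 to 7 lower. The count lower with CCAFs under enzalutamide ran from 2 to 4. Differences of changes with CCAFs against alone ran from 5 to 8 lower, and with CRPCCAFs from 1 to 2 higher. Regained genes ran from 11 to 14 with CCAFs and stayed at 6 with CRPCCAFs.

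Replicate numbers did not pair the libraries, since the deviations of libraries with the same number correlated between -0.0617 and 0.084 across groups. With the replicate number as a block, 28 genes fell alone, 29 with CCAFs and 29 with CRPCCAFs, and 13 and 6 were regained. With no filter STEAP4 and ORM1 joined the genes that fell, for 30 alone, 31 with CCAFs and 31 with CRPCCAFs. The reads behind STEAP4, ORM1 and SGK1, and 2 libraries a group, limit the precision of their values.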
